A study of Mus musculus with 15 samples.

Results

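Epha8 and its paralogues Epha1 to Epha7 encode the EphA receptors described here, 8 of the 55421 genes listed for mouse eyecups. The 8 receptors were chosen by family membership around Epha8, and Epha8 itself was picked from these data, because in Tmem135 FUN025/FUN025 eyecups relative to FUN025/+ eyecups it had one of the 3 largest falls among genes of at least 1 CPM (counts per 1000000 counts in genes, after scaling) that passed an adjusted p of 0.05 with no overlap between the genotypes. The levels and fold changes of Epha8 are therefore given as a description in every comparison, with no test. Its paralogues were not chosen by their values, and 6 of them entered the test over all 18979 genes with enough counts. Epha6 did not pass the filter on low counts and was not tested.

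The study sequenced mRNA of posterior eyecups with the neural retina removed, a preparation of retinal pigment epithelium, choroid and sclera, to ask how a mutation of Tmem135 changes transcription there. Tmem135 encodes a membrane protein of mitochondria and peroxisomes, and FUN025 is a mutant allele of it that every cell of the animal carries. There were 4 WT, 6 FUN025/+ (heterozygous) and 5 FUN025/FUN025 (homozygous) samples, all from mice 2.5 months old on the C57BL/6J background, WT included. Each sample came from an individual mouse, and the study lists mice of both sexes in every genotype. The labels do not give the sex of each library, so sex was not a term of the fit. The 3 comparisons share their samples in pairs, so their fold changes are not independent of one another.

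Eph receptors are receptor tyrosine kinases that bind ephrins on the surface of neighbouring cells. Most EphA receptors bind the lipid-anchored ephrin-A ligands and most EphB receptors the transmembrane ephrin-B ligands, with EphA4 binding both classes. Contact can send a signal into the receptor-bearing cell and another into the ephrin-bearing cell. In the eye the family is best known for mapping retinal axons onto their targets in the brain, and it also takes part in vessel growth and in the borders between epithelial cells.

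The libraries held 10903183 to 20029919 counts in genes, and every WT library (18094977 to 20029919) was deeper than every mutant library (10903183 to 15038383). The mutation was not read directly in these counts, and Tmem135 itself stood at 59.8 to 66.2 CPM in WT, 66.1 to 86.3 CPM in FUN025/+ and 82.5 to 94 CPM in FUN025/FUN025 eyecups. The tissue label held against its markers, as the summed level of 8 pigment epithelium markers, with Rgr and Ttr the highest, was 17000 to 20800 CPM in WT, 17000 to 22400 CPM in FUN025/+ and 16600 to 21200 CPM in FUN025/FUN025 eyecups. Other cells were present in varying amounts. Summed rod markers ranged from 87.3 to 2330 CPM with the highest value in WT 2 (the second WT library), and summed surface epithelium markers (keratins and others of cornea and conjunctiva) ranged from 332 to 4080 CPM. In whole tissue, fewer cells of a type and less RNA per cell cannot be told apart.

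Epha8 encodes a receptor that binds ephrin-A ligands and is known from the developing midbrain. It lies on the minus strand at chr4:136929419-136956816 (GRCm38), is protein coding, and has 4713 bases of exon that overlap no other annotated gene. None of its 4683 stretches of 31 bases occurred in the transcripts of another gene, so reads on Epha8 had no near-identical copy to be split with. Its promoter and that of Epha4, the receptor of highest level, are printed because they differ in their content of the dinucleotide CG, which is given in capitals. Each is 300 bases long, from 250 before to 50 after the RefSeq start (GRCm38.p6), and reads 5′ to 3′ on the minus strand of the gene, at chr4:136956767-136957066 for Epha8 and at chr1:77515039-77515338 for Epha4.
Epha8: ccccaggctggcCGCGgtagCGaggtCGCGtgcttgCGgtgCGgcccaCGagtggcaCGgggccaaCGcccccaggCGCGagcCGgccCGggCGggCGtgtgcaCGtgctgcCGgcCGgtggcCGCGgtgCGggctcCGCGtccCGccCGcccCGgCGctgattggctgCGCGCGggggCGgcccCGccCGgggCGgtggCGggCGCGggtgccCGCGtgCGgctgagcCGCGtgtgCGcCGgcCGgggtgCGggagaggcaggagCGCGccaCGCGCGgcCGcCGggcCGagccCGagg
Epha4: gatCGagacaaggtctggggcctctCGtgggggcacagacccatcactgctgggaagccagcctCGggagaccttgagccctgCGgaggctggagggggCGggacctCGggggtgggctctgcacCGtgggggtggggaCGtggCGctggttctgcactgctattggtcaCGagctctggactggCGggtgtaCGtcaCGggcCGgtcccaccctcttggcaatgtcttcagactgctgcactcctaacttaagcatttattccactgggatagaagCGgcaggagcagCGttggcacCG
The Epha8 promoter held 56 CG dinucleotides at 84.3% G and C bases, and 99.8% of the 32851 mouse promoters of this length in RefSeq held fewer. The median promoter held 7 CG dinucleotides at 52.7% G and C. The other EphA promoters held 10 (Epha2) to 30 (Epha5) CG dinucleotides, with 17 at Epha4. CG reads the same on both strands, and the count is a description of sequence, not of methylation or of a bound factor.

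Epha8 was a gene of low level that was lowest in homozygous and highest in heterozygous eyecups. In the 4 WT libraries it was 3.45, 6.24, 4.40 and 4.28 CPM. In the FUN025/+ libraries it ranged from 5.29 CPM through a median of 5.92 CPM to 8.20 CPM. In the 5 FUN025/FUN025 libraries it was 3.15, 2.93, 2.81, 4.44 and 2.99 CPM. Every homozygous library was below every heterozygous one, and WT libraries lay among both, WT 2 within the heterozygous range and the other 3 within the homozygous range. These CPM rest on 62 to 116 counts in WT, 62 to 100 in FUN025/+ and 33 to 54 in FUN025/FUN025 libraries, so counting error is a visible part of their spread, against a floor of 3 counts at 0.15 to 0.282 CPM.

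The means were 4.59 ± 1.18 CPM in WT (SD, n = 4), 6.23 ± 1.03 CPM in FUN025/+ (n = 6) and 3.26 ± 0.668 CPM in FUN025/FUN025 eyecups (n = 5). The fitted log2 fold change of Epha8 was -0.93 (SE 0.17, 95% interval -1.29 to -0.57) in homozygous relative to heterozygous eyecups, which is the difference that picked the gene. Relative to WT it was 0.44 (SE 0.172, 0.08 to 0.80) in heterozygous and -0.49 (SE 0.184, -0.88 to -0.11) in homozygous eyecups, on opposite sides of 0. These intervals take no account of the choice of Epha8 from the same libraries, so they do not test it against 0. The WT value leaned on WT 2, the WT library with the most Epha8 and the most rod marker RNA. Without WT 2 the log2 fold change relative to WT was 0.63 in heterozygous and -0.30 in homozygous eyecups. The part of retinal RNA in this was not tested.

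Most markers of the pigment epithelium stood on the same side of 0 as Epha8 in each comparison. Of the 8 markers, 6 had a fitted level above WT in heterozygous eyecups, 6 below WT in homozygous eyecups, and 7 were lower in homozygous than in heterozygous eyecups, with median log2 fold changes of 0.07, -0.12 and -0.18. This was not particular to pigment epithelium, as 3, 4 and 4 of 5 Muller glia markers stood on those sides. All 8 rod, 5 tested bipolar cell and 6 endothelium markers were also lower in homozygous than in heterozygous eyecups, and all 6 striated muscle markers were higher. Between the mutant genotypes Rpe65 stood at -0.32 (SE 0.101, adjusted p 0.343), Rgr at -0.29 (SE 0.099, adjusted p 0.44) and Ttr, on the other side of 0, at 0.25 (SE 0.088, adjusted p 0.509). No pigment epithelium marker passed in any comparison by edgeR or DESeq2, where 13.7%, 14% and 0.522% of all genes were called by edgeR. At an unadjusted p under 0.05 there were 0, 1 and 5 of the 8 markers, beside 28.8%, 28.6% and 6.23% of all genes. The part of pigment epithelium RNA in the Epha8 difference was not tested.

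**Figure D1:**
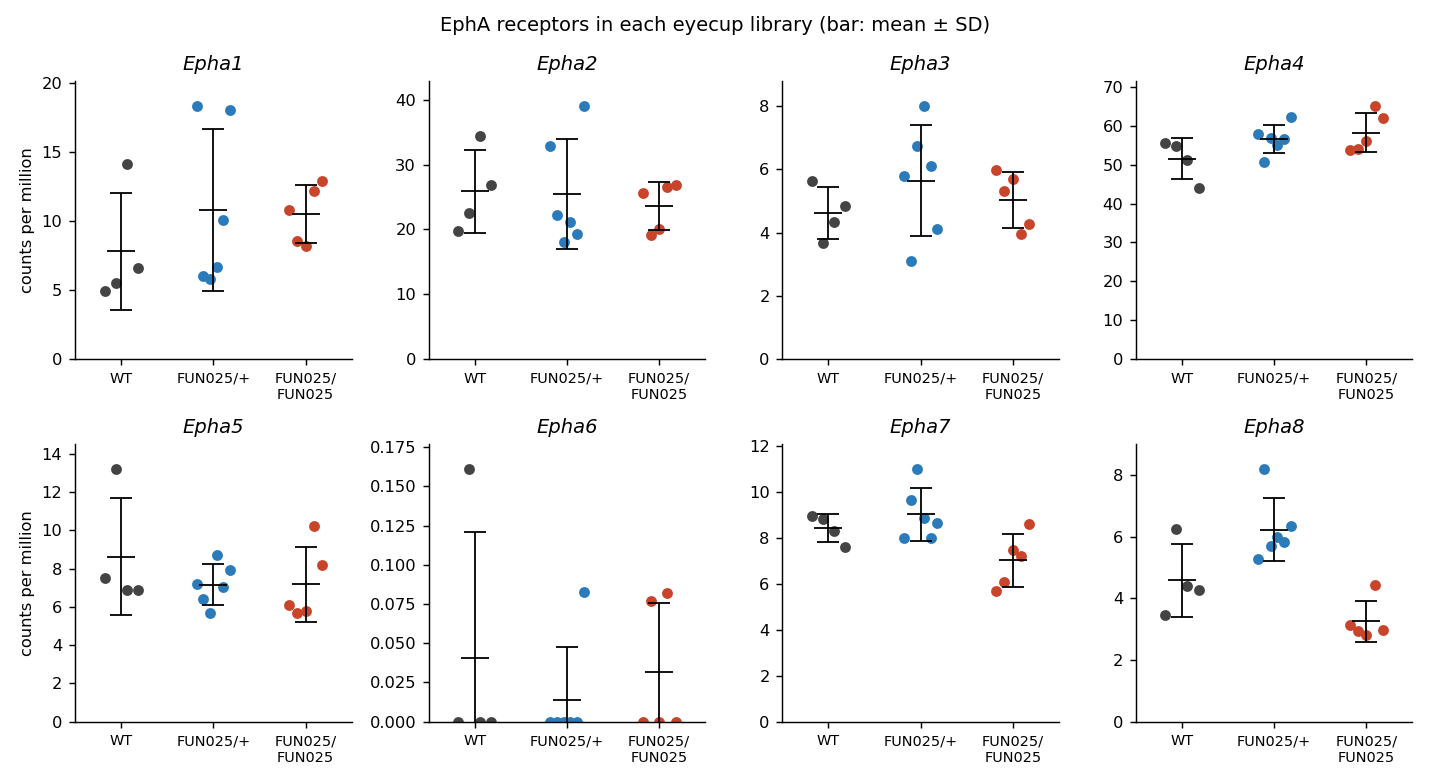
Levels of the 8 EphA receptors in CPM (vertical axis, a scale of its own in each panel, starting at 0) by genotype, with 1 point per library and bars for the mean ± SD of 4 WT, 6 FUN025/+ and 5 FUN025/FUN025 libraries. Epha8 in the 5 FUN025/FUN025 libraries (2.81 to 4.44 CPM) sits below all 6 FUN025/+ libraries (5.29 to 8.20 CPM), while in Epha1 to Epha5 and Epha7 the genotypes overlap.

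None of the 6 tested paralogues passed the test in any comparison by edgeR's quasi-likelihood test (adjusted p under 0.05). Over all genes 13.7% were called in heterozygous eyecups relative to WT (7.09% higher, 6.61% lower), 14% in homozygous eyecups relative to WT (7.03% higher, 7.02% lower) and 0.522% in homozygous relative to heterozygous eyecups, so that fewer than 1 call among 6 genes would match the background in any comparison. At an unadjusted p under 0.05 the paralogues gave 0, 1 (Epha4) and 1 (Epha7) in these comparisons, beside 28.8%, 28.6% and 6.23% of all genes, and DESeq2 called 0 in each. In none of the 6 did the values of 2 genotypes stand without overlap, where 10.9%, 14.8% and 1.12% of all genes did so in the same order of comparisons. Their median log2 fold changes were 0.12, -0.001 and -0.08, beside -0.002, -0.007 and -0.004 over all genes tested.

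Epha7, which binds ephrin-A5 and is known from axon guidance and cortical growth, was the paralogue whose difference between homozygous and heterozygous eyecups was farthest from 0. It was 8.96, 8.82, 8.29 and 7.62 CPM in WT, 8.0 to 11.0 CPM in FUN025/+ and 5.71, 6.08, 7.47, 7.23 and 8.62 CPM in FUN025/FUN025 libraries. A homozygous library, at 8.62 CPM, lay within both other genotypes, while the other 4 were below every WT and every heterozygous library. The log2 fold change was -0.37 (SE 0.118, 95% interval -0.62 to -0.12, adjusted p 0.356) in homozygous relative to heterozygous eyecups and -0.27 (SE 0.127, adjusted p 0.175) relative to WT. Heterozygous and WT eyecups differed by 0.10 (SE 0.121, adjusted p 0.613). The 95% intervals of Epha7 and Epha8 between the mutant genotypes (-0.62 to -0.12 and -1.29 to -0.57) overlapped at their ends. The interval of Epha8 takes no account of how it was picked, and the difference between the 2 genes was not tested.

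Epha4, a receptor for both ephrin classes, had the highest level of the EphA receptors and the narrowest errors. It was 55.6, 54.9, 51.3 and 44.0 CPM in WT, 50.7 to 62.2 CPM in FUN025/+ and 53.8, 53.9, 56.2, 65.0 and 61.9 CPM in FUN025/FUN025 libraries. Its log2 fold change relative to WT was 0.14 (SE 0.072, adjusted p 0.227) in heterozygous and 0.17 (SE 0.075, 95% interval 0.02 to 0.33, adjusted p 0.131) in homozygous eyecups. Both mutant genotypes overlapped WT, and between them the difference was 0.04 (SE 0.068, adjusted p 1.0).

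Epha1 and Epha2 are the EphA receptors best known from epithelia, and both varied widely among WT and among FUN025/+ libraries. Epha1 was 4.95, 5.54, 14.1 and 6.62 CPM in WT, 5.76 to 18.3 CPM in FUN025/+ and 8.19 to 12.9 CPM in FUN025/FUN025 libraries. Its 3 highest libraries, FUN025/+ 1 (18.3 CPM), FUN025/+ 6 (18 CPM) and WT 3 (14.1 CPM), were also the ones whose summed surface epithelium markers were more than 2 times the median of their genotype (2660, 4080 and 1610 CPM). Epha2 had its highest levels in the same libraries, at 32.9, 39.0 and 34.4 CPM, against 18.1 to 26.9 CPM in all others. No epithelial marker was at 0 in every library of a genotype, and the summed level of the 6 markers was 332 to 1610 CPM in WT, 447 to 4080 CPM in FUN025/+ and 777 to 2010 CPM in FUN025/FUN025 eyecups.

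With all libraries, Epha1 gave a log2 fold change of 0.47 (SE 0.401, adjusted p 0.475) in heterozygous and 0.43 (SE 0.416, adjusted p 0.542) in homozygous eyecups relative to WT. Without those 3 libraries, a choice made after seeing the data, the homozygous value was 0.89 (SE 0.197, adjusted p 0.00884), and Epha1 was then the only paralogue called in any comparison. The heterozygous value was then 0.32 (SE 0.209, adjusted p 0.364). The remaining WT libraries, at 4.95 to 6.62 CPM, all lay below the homozygous ones, and their summed epithelial markers (332 to 418 CPM) also lay below those of all homozygous libraries. The 3 libraries were picked against the median of their own genotype. The kept FUN025/FUN025 1 and FUN025/FUN025 5 had more epithelial marker RNA (2010 and 1780 CPM) than WT 3 (1610 CPM). Without WT 3 alone, Epha1 gave 0.93 in heterozygous and 0.89 in homozygous eyecups relative to WT. Without FUN025/+ 1 alone it gave 0.25 in heterozygous eyecups, and it passed in neither fit. The part of surface epithelium in the Epha1 difference was not tested. Epha2 did not pass with or without the 3 libraries, at -0.02 (SE 0.225, adjusted p 0.963) in heterozygous and -0.13 (SE 0.234, adjusted p 0.75) in homozygous eyecups relative to WT with all libraries.

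**Figure D2:**
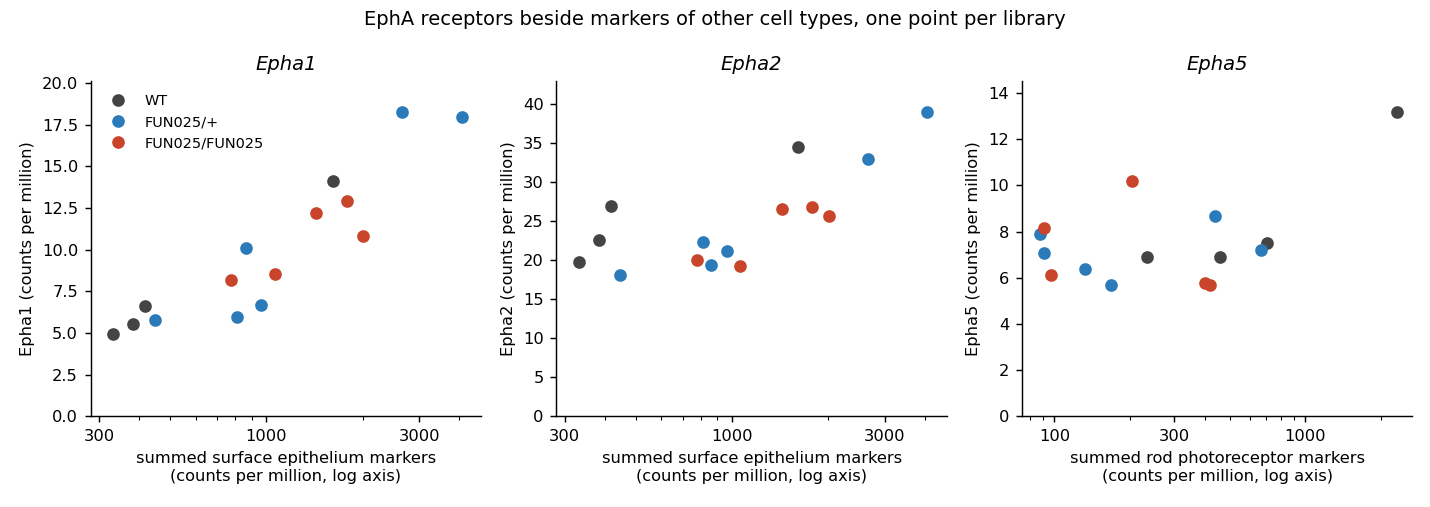
Epha1 and Epha2 (CPM, vertical axes) against the summed level of 6 surface epithelium markers, and Epha5 against the summed level of 8 rod photoreceptor markers (CPM, logarithmic horizontal axes), with 1 point per library coloured by genotype. The 3 libraries highest in Epha1 and Epha2 are at the right of their groups (1610, 2660 and 4080 CPM of epithelial markers), and the library highest in Epha5 (13.2 CPM) is the one with 2330 CPM of rod markers.

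Epha3 and Epha5, both known from axon guidance, were low and did not differ beyond their spread. Epha5 was 7.51, 13.2, 6.89 and 6.90 CPM in WT, 5.69 to 8.69 CPM in FUN025/+ and 5.70 to 10.2 CPM in FUN025/FUN025 libraries. The single high value was WT 2, which also had the most rod marker RNA. The log2 fold change of Epha5 was -0.27 relative to WT in both heterozygous (SE 0.201, adjusted p 0.396) and homozygous eyecups (SE 0.21, adjusted p 0.431), and 0.02 in both without WT 2. Epha3 was 3.66 to 5.62 CPM in WT, 3.11 to 8.0 CPM in FUN025/+ and 3.95 to 5.98 CPM in FUN025/FUN025 libraries, with log2 fold changes of 0.29 (SE 0.21, adjusted p 0.381) and 0.13 (SE 0.219, adjusted p 0.735) relative to WT.

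Epha6 was at or under the detection limit. It had 3 counts in WT 2, 1 in FUN025/+ 6, 1 each in FUN025/FUN025 2 and FUN025/FUN025 4, and 0 in the other 11 libraries. At the 3 counts taken as the limit, which corresponds to 0.15 to 0.282 CPM in these libraries, no difference in Epha6 was detectable at this depth.

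**Figure D3:**
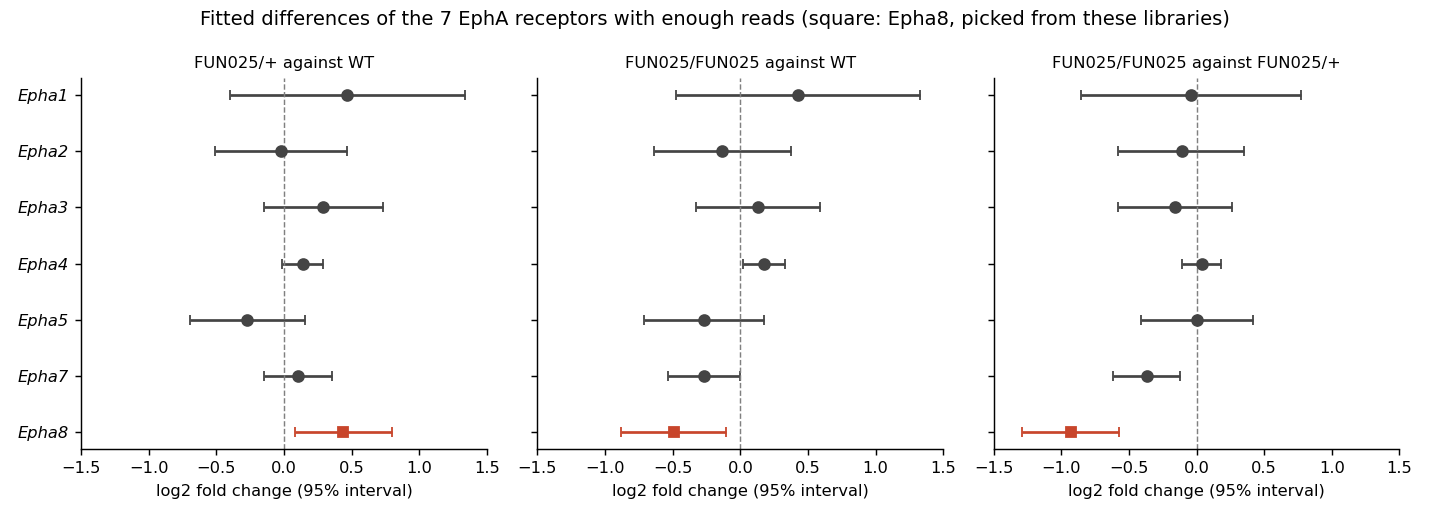
Fitted log2 fold change (horizontal axis) of the 7 EphA receptors that passed the count filter, 1 panel per comparison, with lines for the 95% interval and a square for Epha8, which was picked from the comparison of the mutant genotypes. Epha8 is given as a description with no test, at 0.44, -0.49 and -0.93, and its intervals take no account of how it was picked. None of the other 6 receptors passed in any panel, and the intervals of Epha1 are the widest.

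Between genes, levels were compared as CPM per kilobase of exon. In WT eyecups the order was Epha4 (6.39 CPM per kb), Epha2 (5.54), Epha1 (1.99), Epha8 (0.974), Epha7 (0.852), Epha3 (0.531), Epha5 (0.516) and Epha6 (0.00763). Neighbours in this order whose WT ranges overlapped were Epha4 with Epha2, Epha1 with Epha8, Epha8 with Epha7, and Epha3 with Epha5. In FUN025/+ eyecups the order was the same, with Epha8 at 1.32 CPM per kb and its range clear of that of Epha7 (0.914). In FUN025/FUN025 eyecups Epha8 (0.693 CPM per kb) came after Epha7 (0.711), with overlapping ranges that Epha8 also shared with Epha3 (0.58). The place of Epha8 depended on the length used. Over the longest transcript of each gene in place of all exons, Epha8 came 6th, 5th and 7th of 8 in WT, FUN025/+ and FUN025/FUN025 eyecups, where over all exons it came 4th, 4th and 5th.

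The summed level of the 8 receptors was 16.8 ± 2.22 CPM per kb in WT (n = 4), 18.5 ± 3.43 in FUN025/+ (n = 6) and 17.4 ± 1.99 in FUN025/FUN025 eyecups (n = 5), with overlapping ranges. Epha8 made up 5.84 ± 1.54%, 7.36 ± 2.01% and 3.98 ± 0.542% of that sum in the same order. Epha4 held 38.5%, 38.6% and 41.7% of it and Epha2 32.7%, 28.8% and 29%, so these receptors together carried most of the EphA mRNA in every genotype. Among all 14 Eph receptors measured, WT eyecups had most Ephb4 (17.4 CPM per kb), and Epha8 came 8th (11th by longest transcript).

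**Figure D4:**
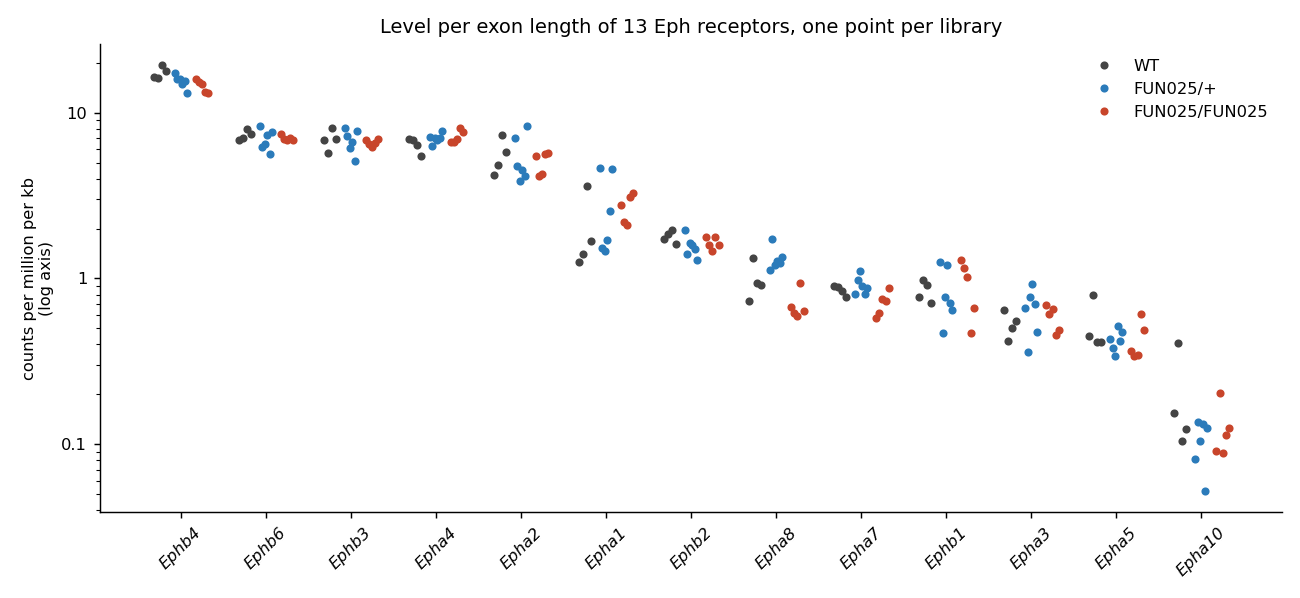
Level of 13 Eph receptors (all measured but Epha6, which was at 0 in most libraries) as CPM per kilobase of exon (logarithmic axis) by genotype, with 1 point per library. Ephb4 is highest at 17.4 CPM per kb in WT, Epha4 and Epha2 lead the EphA receptors, and Epha8 lies near Epha7 at 0.693 to 1.32 CPM per kb.

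Sequence shared with other genes could blur the paralogues to different extents. Of the 31-base stretches in their transcripts, 8.41% in Epha1 also occurred in other genes, 2.4% in Epha6 and 1.88% in Epha2, against 0.222% to 0.926% in Epha3, Epha4, Epha5 and Epha7. At most 0.0649% of the stretches of any member occurred in another EphA receptor. The exons of Epha1 overlapped those of Zyx over 236 bases (6.01% of its exon length) and those of Epha6 overlapped Gm9017 over 107 bases (2.02%), so Epha1 counts are less certain than the rest.

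The ephrin-A ligands were all detected, and with all libraries none of the 5 passed the test in any comparison by edgeR or DESeq2, with 1 at an unadjusted p under 0.05 in each (beside 28.8%, 28.6% and 6.23% of all genes). At the 13.7%, 14% and 0.522% of all genes called, fewer than 1 of 5 would match the background. Efna5, the broadly binding ephrin-A5, and Efna1, known from vessels and epithelia, had the highest levels at 12.2 and 11.5 CPM per kb in WT, followed by Efna2 (3.46), Efna4 (2.41) and Efna3 (1.04). Efna1 had the largest differences from WT in both mutant genotypes, with 21 ± 3.18 CPM in WT, 17.7 ± 2.28 CPM in FUN025/+ and 17.6 ± 0.576 CPM in FUN025/FUN025 eyecups. Its log2 fold changes relative to WT were -0.25 (SE 0.1, adjusted p 0.102) and -0.26 (SE 0.104, adjusted p 0.108). Without WT 2, Efna1 passed in both mutant genotypes (adjusted p 0.0384 and 0.0402), and without FUN025/+ 1 it passed in heterozygous eyecups (0.0472). Efna3 was 3.01 ± 0.53 CPM in heterozygous and 2.23 ± 0.749 CPM in homozygous eyecups, a log2 fold change of -0.42 (SE 0.201, adjusted p 0.799). Efna2 gave -0.12, -0.23 and -0.11, Efna4 0.10, 0.15 and 0.05, and Efna5 0.07, 0.08 and 0.02 for heterozygous to WT, homozygous to WT and homozygous to heterozygous. The genotypes overlapped in every ephrin-A, beside 10.9%, 14.8% and 1.12% of all genes without overlap.

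Of the other Eph receptors (Epha10 and 5 EphB receptors), 1 fell in homozygous eyecups relative to WT and none passed in the other comparisons, with DESeq2 counts of 0, 1 and 0 and unadjusted counts of 2, 1 and 0 (beside 28.8%, 28.6% and 6.23% of all genes unadjusted). With 14% of all genes called in that comparison (7.02% lower), 1 of 6 is near the background. The one that fell was Ephb4, the receptor of venous endothelium. It was 76.4, 74.9, 89.5 and 82.5 CPM in WT and 74.2, 71.6, 69.2, 62.2 and 61.3 CPM in FUN025/FUN025 libraries, which did not overlap (as in 14.8% of all genes), with FUN025/+ at 61.0 to 80.3 CPM between and across them. Its log2 fold change was -0.25 (SE 0.076, adjusted p 0.0324) in homozygous and -0.17 (SE 0.073, adjusted p 0.13) in heterozygous eyecups. The call was lost without WT 3, WT 4, FUN025/FUN025 4 or FUN025/FUN025 5 (adjusted p 0.123, 0.0886, 0.0824 and 0.0805), and without the 3 libraries high in epithelial markers (0.0606).

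Of 3 ephrin-B ligands, Efnb1, whose protein binds EphB receptors at tissue borders, fell in homozygous eyecups, from 45 ± 5.03 to 37.4 ± 4.56 CPM, with overlap (log2 fold change -0.27, SE 0.087, adjusted p 0.0476). Over all genes 14% were called in that comparison (7.02% lower), and no result about the list is read from 1 of 3. The call lay at the threshold and was lost without any one of 12 libraries other than WT 1, FUN025/+ 1 and FUN025/FUN025 4, with only the 2 genotypes compared in the fit (adjusted p 0.0857) and without the 3 libraries high in epithelial markers (0.151). Efnb1 passed in heterozygous eyecups only without WT 1 (adjusted p 0.0403), and with all libraries no ephrin-B passed in the other comparisons by edgeR or DESeq2 (1 and 0 at an unadjusted p under 0.05, for heterozygous to WT and homozygous to heterozygous, beside 28.8% and 6.23% of all genes).

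Of 26 partners of Eph signalling, 5 passed in heterozygous (2 higher, 3 lower) and 6 in homozygous eyecups relative to WT (2 higher, 4 lower), and 0 between the mutant genotypes by edgeR. At an unadjusted p under 0.05 there were 9, 6 and 1, beside 28.8%, 28.6% and 6.23% of all genes, and DESeq2 called 6, 6 and 0. The 5 and 6 of 26 stand beside a background of 13.7% and 14% of all genes, and nothing particular to these genes is drawn from that. The median log2 fold changes were -0.03, -0.02 and -0.02.

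Anks1, an adaptor known to bind EphA8 and other Eph receptors and to protect them from degradation, fell in both mutant genotypes. It was 54.9 to 60.4 CPM in WT, 43.8 to 50.3 CPM in FUN025/+ and 45.6 to 49.2 CPM in FUN025/FUN025 libraries, with every mutant library below every WT library. The log2 fold change was -0.25 (SE 0.047, adjusted p 0.00219) in heterozygous and -0.26 (SE 0.049, adjusted p 0.00194) in homozygous eyecups. Of the 26 partners, 4 in heterozygous and 7 in homozygous eyecups did not overlap WT, beside 10.9% and 14.8% of all genes. Arhgef15, a guanine nucleotide exchange factor of vessels that acts downstream of EphA4, fell by 0.38 (SE 0.104, adjusted p 0.0234) and by 0.56 (SE 0.109, adjusted p 0.00292) on the log2 scale, also with no overlap with WT, and the heterozygous call was lost without WT 3 or WT 4 (adjusted p 0.0521 and 0.0994) and without the 3 libraries high in epithelial markers (0.0752).

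Vav2, an exchange factor for Rac that binds activated Eph receptors, fell by 0.29 (SE 0.084, adjusted p 0.0294) and by 0.32 (SE 0.087, adjusted p 0.0219), and each call was lost without WT 2 or WT 3 (adjusted p 0.108 and 0.0871 for heterozygous, 0.0815 and 0.0725 for homozygous eyecups). The heterozygous Vav2 call was also lost with only the 2 genotypes compared in the fit (0.078), with all libraries thinned to the smallest total (0.0533) and without FUN025/+ 2, 3 or 5 (0.0594, 0.0681 and 0.0576), and the homozygous one without FUN025/FUN025 1 (0.057). Fyn, a Src-family kinase, fell by 0.34 (SE 0.077, adjusted p 0.00684) in homozygous eyecups, with -0.22 (adjusted p 0.0525) in heterozygous ones, where it passed with all libraries by DESeq2 (0.0442), with no filter on low counts (0.0448) and with at least 10 counts in every library (0.0477), and by edgeR without FUN025/+ 1 or 3 (0.0278 and 0.0478). The genes that rose were Yes1, another Src-family kinase, and Adam10, the protease that cleaves ephrins. Yes1 rose by 0.26 in both (adjusted p 0.0108 and 0.0131), and Adam10 rose by 0.24 in both (adjusted p 0.00487 and 0.00553). Crk, the adaptor with the highest level of the partners (37.8 CPM per kb in WT), stayed within -0.02 to 0.03 in the 3 comparisons, none of which passed.

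Ephb4 and Arhgef15, which are also known from vessels, fell in the same comparison as endothelial markers. Of 6 endothelium markers (Cdh5, Pecam1, Kdr, Tie1, Plvap and Emcn), 2 fell in heterozygous and 5 in homozygous eyecups relative to WT, where 6.61% and 7.02% of all genes fell. Their summed level was 887 to 1040 CPM in WT, 689 to 950 CPM in FUN025/+ and 617 to 773 CPM in FUN025/FUN025 libraries, with no marker at 0. The part of endothelial RNA in the Ephb4 and Arhgef15 differences was not tested.

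**Figure D5:**
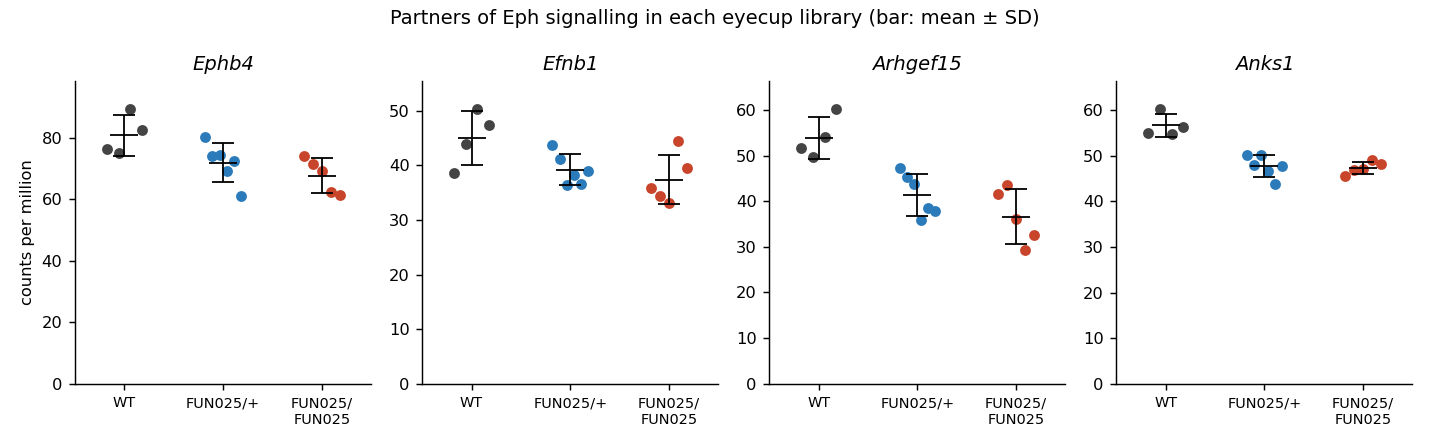
Levels in CPM (vertical axis from 0, a scale of its own in each panel) of Ephb4, Efnb1, Arhgef15 and Anks1 by genotype, with 1 point per library and bars for the mean ± SD of 4, 6 and 5 libraries. Anks1 in both mutant genotypes (43.8 to 50.3 CPM) sits below all WT libraries (54.9 to 60.4 CPM), while Efnb1 overlaps between genotypes.

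The genes on either side of Epha8 on chromosome 4 were followed because a difference could extend over neighbouring genes. On the side of lower coordinates lie C1qa, C1qc and C1qb, which encode the chains of complement C1q, 30616, 36354 and 43232 bases away, then Ephb2 (93431 bases) and Lactbl1 (290309 bases). On the other side lie Zbtb40 (22916 bases), Wnt4 (320673 bases), Cdc42 (362880 bases) and the elastase genes Cela3a and Cela3b, both untested. Of the 8 tested neighbours, 1 rose in heterozygous eyecups and 1 fell in homozygous eyecups relative to WT, and 0 passed between the mutant genotypes by edgeR. These counts are near the 13.7% and 14% of all genes called relative to WT and are no result about the neighbours. There were 3, 3 and 2 at an unadjusted p under 0.05, beside 28.8%, 28.6% and 6.23% of all genes, and DESeq2 called 1, 2 and 0. The gene that rose was Cdc42, a small GTPase of the cytoskeleton, at 0.14 (SE 0.045, adjusted p 0.0406), and the one that fell was Zbtb40, a zinc finger gene, at -0.30 (SE 0.091, adjusted p 0.0358). Leaving out 1 library at a time, the Cdc42 call was lost in 8 of 15 fits (adjusted p up to 0.128, without WT 2) and the Zbtb40 call in 7 of 15 (up to 0.129, without WT 3). The Cdc42 call was also lost on thinning to the smallest total (0.0548), with no filter on low counts (0.11) and with only the 2 genotypes compared in the fit (0.0584). Without the 3 libraries high in epithelial markers both were lost (0.095 for Cdc42 and 0.104 for Zbtb40). Calls were also gained. Cdc42 passed in homozygous eyecups relative to WT by DESeq2 (adjusted p 0.0344) and by edgeR without FUN025/FUN025 4 (0.0449). Zbtb40 passed in heterozygous eyecups without FUN025/+ 1 (0.0414). C1qa, C1qb and C1qc stood at 0.40, 0.28 and 0.32 in homozygous relative to heterozygous eyecups, on the other side of 0 from Epha8, and none passed with all libraries (adjusted p 0.41, 0.862 and 0.681). Of the 8 tested neighbours 4 were higher and 4 lower in this comparison, the lower ones being Wnt4 (-0.16), Zbtb40 (-0.05), Lactbl1 (-0.04) and Cdc42 (-0.03). Without FUN025/+ 2, C1qa passed between the mutant genotypes (0.52, adjusted p 0.0144) and C1qc in heterozygous eyecups relative to WT (-0.31, adjusted p 0.0493).

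The genes whose log2 CPM followed Epha8 most closely over the 15 libraries, among 17586 genes of at least 1 CPM on average, were Cldn2 (Pearson's r 0.896), the antisense gene Gm28913 (0.859), Asic2 (0.826), Grm7 (0.825) and Rnf208 (0.81). These values are descriptive, as the libraries share their genotypes and Epha8 was chosen on a difference between them. Cldn2, which encodes the tight junction protein claudin-2, was 91.4 ± 8.76 CPM in WT, 96.8 ± 8.91 CPM in FUN025/+ and 73.6 ± 4.73 CPM in FUN025/FUN025 eyecups. Asic2, an acid-sensing ion channel, was 10.9 ± 1.29, 11.9 ± 1.28 and 7.66 ± 0.37 CPM. In both genes all homozygous libraries were below all heterozygous and all WT libraries, whereas Epha8 overlapped WT. In Gm28913, Grm7 and Rnf208 the mutant genotypes overlapped. Over all genes 1.12% did not overlap between the mutant genotypes and 14.8% between homozygous and WT eyecups. As these genes were picked for following Epha8, a separation of the mutant genotypes in them is no independent result.

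After the mean of each genotype was subtracted, the closest genes were Thsd7b (0.898), Kbtbd2 (0.875), Grm7 (0.824), Mesd (0.822) and Gm28913 (0.817). Only Grm7, a metabotropic glutamate receptor, and Gm28913 were among the closest both times. Among the EphA receptors the closest to Epha8 over all libraries was Epha7 (0.622, 115th of all genes), and within genotypes it was Epha5 (0.619, 202nd), with Epha3 the farthest (-0.722). By rank correlation, 2 of the 5 genes named first and 0 of the 5 named within genotypes came out among the closest 5 again.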

How the data were processed

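Posterior eyecups of 15 mice were profiled as mRNA (oligo(dT) enrichment, NEBNext Ultra libraries, paired-end reads), per the labels and the study's methods. The deposited values are raw counts per Ensembl gene, made by the authors. The submitters' processing notes name FastQC 0.11.8, Trimmomatic 0.39, HISAT2 2.1.0, SAMtools, featureCounts 2.0.0 and GRCm38. The strand setting of the counting is not given in the sources used here, so overlapping genes on opposite strands may share reads. The files list 55421 genes and 0 rows that name no gene, and 55240 matched GENCODE M21, which gave symbols, positions and exon lengths.

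The least variable 15% of genes were dropped first, as the study did (47108 left). The edgeR filter on low counts then left 18979 genes. Counts were scaled by TMM and fitted with edgeR 4.0.16 (R 4.3.3, quasi-likelihood test, genotype as the only term, all 15 libraries in 1 fit), and called at a Benjamini-Hochberg adjusted p under 0.05 over all genes tested. CPM use the TMM-scaled library sizes. Log2 CPM for correlations used a prior count of 2. Intervals are 95% intervals of the fit for the difference between genotype means, with errors that take in the spread between mice. Alternatives were DESeq2 1.42.0, other filters and scalings, fits of only the 2 genotypes compared, thinning to the smallest library total, a replicate block, other lengths and correlations, and leaving out each library. Figures and sequence counts used Python 3.11.15. Scripts were tested on simulated data. The replicate numbers of the labels only name the samples. The 31 pairs of libraries within a genotype all differed beyond counting noise (chi-square per gene 3.06 to 17.2), so each library counts as 1 sample.

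The members and gene lists were chosen with earlier results of these data known. All EphA receptors and ephrin-A ligands are named. From each of the other lists (EphA10 and EphB receptors, ephrin-B ligands, partners, neighbours) the genes named are, in each comparison, at most the 4 called genes with the largest fold change, plus the member of highest level per length. The 5 genes most like Epha8 by each correlation are named too. Adam10, Rpe65, Rgr, Ttr, Lactbl1, Ephb2, Wnt4 and the C1q and Cela3 genes are named beyond this rule. The tables of shared 31-base stretches used GENCODE M21 transcripts, and promoter sequences came from RefSeq.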

Additional observations from a re-analysis of the deposited data

Results flagged for a closer look

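In 8 of the 96 groups examined, 1 library stood apart from the rest of its genotype by Dixon's criterion, and chance alone gives about 1 in 20. The groups were the genes named by the rule, Adam10, Rpe65, Rgr, Ttr and the tested neighbours in each genotype, without Epha6, which was at or under the limit of 3 counts. Epha5 was 13.2 CPM in WT 2 and 6.89 to 7.51 CPM in the other WT libraries. Epha8 was 8.20 CPM in FUN025/+ 2 and 5.29 to 6.35 CPM in the other heterozygous libraries. Epha8 was 4.44 CPM in FUN025/FUN025 4 and 2.81 to 3.15 CPM in the other homozygous libraries, and that library lay on the side of the heterozygous values. Cdc42 was 346 CPM in the same homozygous library and 377 to 385 CPM in the others, and without that library it passed in homozygous eyecups relative to WT (log2 fold change 0.15, adjusted p 0.0449). Without FUN025/+ 2 the log2 fold change of Epha8 in homozygous relative to heterozygous eyecups was -0.84, and without FUN025/FUN025 4 it was -1.06. As these genotypes did not overlap in the gene as it was picked, leaving out a library could not turn that direction. Among the neighbours, WT 4 had 88.0 CPM of C1qb (58.6 to 62.5 CPM in the other WT libraries) and 108 CPM of C1qa (74.0 to 79.5 CPM). FUN025/+ 2 had 89.1 CPM of C1qc (53.5 to 65.3 CPM in the other heterozygous libraries) and 106 CPM of C1qa (63.1 to 76.9 CPM). Without FUN025/+ 2, C1qa passed between the mutant genotypes (log2 fold change 0.52, adjusted p 0.0144).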

How the results depend on the processing

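Under 24 alternatives, 15 of which left out 1 library, the log2 fold changes of Epha8 relative to WT kept their direction, and those of all 3 comparisons moved by less than the spread between libraries. The direction between the mutant genotypes was fixed by how Epha8 was picked and is no sign of stability. The comparisons with WT use the same mutant libraries that picked Epha8, so their kept direction is no independent support either. The values ranged from 0.32 to 0.63 (heterozygous to WT), -0.62 to -0.30 (homozygous to WT) and -1.06 to -0.84 (homozygous to heterozygous) with 1 library left out. Over these alternatives and the 3 comparisons, 2149 fold changes of the other genes fitted again (Adam10, Rpe65, Rgr, Ttr, the tested neighbours and those named by the rule) stayed on their side of the threshold, 17 passed it newly and 63 no longer passed it, and no called value among them changed sign. The paralogues gave 0 calls in every fit that left out 1 library (0 to 0) and under every other setting except the next. Without the 3 libraries high in epithelial markers for their genotype, an alternative chosen after seeing the data, 1 of 6 paralogues (Epha1, homozygous to WT) was called. With all libraries 14% of all genes were called in that comparison. In heterozygous eyecups relative to WT, leaving out the 3 gave 1588 calls over all genes, against 2600 with all libraries, which is no background for the Epha1 call. With 1 library left out, calls over all genes ranged from 1433 (without WT 4) to 2719 in heterozygous and from 1519 (without WT 4) to 2697 in homozygous eyecups relative to WT (2666 with all), and from 68 to 106 between the mutant genotypes (99 with all). Calls among the 40 ligands, other receptors and partners ranged from 3 (without WT 3) to 7 and from 5 (without WT 3) to 8. DESeq2 called 171 genes between the mutant genotypes. By longest transcript the rank of Epha8 was 6, 5 and 7, and by rank correlation 2 and 0 of the genes most like it were the same. The cause of these shifts was not tested.

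With the replicate block, a paired fit within 2 genotypes at a time, calls relative to WT were 610 over all genes and 0 among the 40 listed genes in heterozygous eyecups (2600 and 5 without it), and 1243 and 4 in homozygous eyecups (2666 and 8 without it). The paralogues gave 0 calls with the block in all 3 comparisons, Adam10 no longer passed (adjusted p 0.054 and 0.0757), and Rpe65 and Rgr passed between the mutant genotypes (0.00759 and 0.0464). Same-numbered libraries correlated at -0.38 to -0.08, -0.19 to 0.03 and -0.04 to 0.13 in the 3 comparisons. In 0 of 4, 0 of 4 and 1 of 5 pairs the library of the first genotype had its same-numbered one as closest match in the second, so the numbers do not pair the mice.

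Epha8 rested on 33 to 116 counts per library, and Epha6 cannot be compared at this depth. WT libraries were deeper, and thinning all to the smallest total ended the heterozygous calls of Vav2 and Cdc42 (adjusted p 0.0533 and 0.0548).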
